A study of Mus musculus with 66 samples.

Results

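Germinal centre (GC) B cells and naive B cells from the spleen were compared after both had been exposed to anti-IgM, an antibody that crosslinks the IgM B cell receptor. The comparison used the 8 libraries given anti-IgM and no other agent, out of 66 libraries in 24 groups: 2 GC and 2 naive libraries collected at 2 h, and 2 GC and 2 naive libraries at 4 h. All groups came from BALB/c mice that carry an IgM B1-8 BCR transgene, with the strain also labelled MEG. Both cell types therefore carry the same receptor transgene on the IgM isotype. The other libraries of the series received IL-21, anti-CD40, combinations of these agents or nothing. The 8 unstimulated libraries (2 per cell type and time) give the reference values quoted for single genes and for some gene lists. The labels describe bead purification for GC B cells and do not give the purification of the naive cells, and they do not say whether replicate numbers 1 and 2 are separate mice. The p-values below therefore measure the spread between these libraries, which may be technical. The question addressed is the level each transcript reached in the GC and naive cells under receptor crosslinking, and not by how much each cell type moved from its own starting point.

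GC B cells are activated B cells that divide rapidly and mutate their immunoglobulin genes in the follicle, while naive B cells are small resting cells that recirculate. In resting B cells, crosslinking of the receptor activates Syk and Btk, raises calcium, and switches on MAPK, NF-kB and NFAT signalling, which is followed by immediate early transcription, Myc and cell growth. GC B cells are known for a weaker signalling output from the antigen receptor than naive cells, with strong inhibitory phosphatase activity.

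Levels are the log2 values deposited by the authors, 1 value per gene and library, and differences are GC minus naive on that scale. Levels are quoted in the order replicate 1 and replicate 2, and levels of different genes are not compared with each other. Of 23420 genes, 10059 passed a minimum of log2 1 in at least 4 of the 8 libraries. Among these, 184 passed only through the naive libraries and 227 only through the GC libraries, with every library of the other cell type at or under 1. Such genes had to differ, so their differences are descriptions, and the text says where a group holds several of them. Those described are Mybl1, Cenpf, Tnfsf9 and Cdkn2c (only through GC) and Il7r, Vegfa, Cd14, Cd1d1, Spry1 and Ifit1 (only through naive). A gene was called where the GC minus naive difference, averaged over 2 h and 4 h in a limma fit, had a Benjamini-Hochberg adjusted p below 0.05. The sums of the back-transformed values ran from 928253 to 1056642 per library, the median of the genes tested lay between 5.13 and 5.16 in every library, and the number of reads behind a value is unknown. Libraries of the same cell type and time correlated at 0.93 to 0.95 across genes, against 0.67 to 0.79 for GC with naive libraries.

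The labelled identities were checked against marker genes. Of 9 general B cell markers tested, 4 were higher in GC cells, 1 was lower and 4 were not called, and their summed level was 12.51 to 13.09 in GC libraries and 11.75 to 12.96 in naive libraries. Markers of myeloid, red cell and NK lineages had higher summed levels in the naive libraries, and those of plasma cells in the GC libraries. Of 15 myeloid markers, 10 passed the minimum, 2 of them only through the naive libraries, and 9 of the 10 were lower in GC cells, with a summed log2 level over all 15 of 5.47 to 6.55 in GC and 7.75 to 9.65 in naive libraries. Lyz2, the lysozyme of macrophages, stood at 1.56 and 2.67 in GC libraries at 2 h and 1.58 and 1.93 at 4 h, against 6.92 and 6.03, then 5.11 and 4.62, in naive libraries, a difference of -3.73 ± 0.33 (SE; adjusted p = 0.000124, limma). The GC and naive libraries did not overlap for it, and the unstimulated naive libraries already averaged 6.04, against 2.36 in unstimulated GC libraries. The 11 markers of red cells and platelets in the files had summed levels of 5.71 to 5.99 in GC and 7.81 to 9.41 in naive libraries, although Hba-a1 and Hba-a2 were low in all 8 libraries, and 3 of the 5 that were tested passed only through the naive libraries. The NK cell list summed to 1.59 to 2.59 in GC and 4.44 to 6.83 in naive libraries. Its only tested member was Prf1 at -3.87. The 11 plasma cell markers summed to 11.25 to 12.04 in GC and 10.17 to 10.99 in naive libraries, with 5 of 9 tested higher and 1 lower in GC cells. The T cell list summed to 8.12 to 9.58 in GC and 8.20 to 8.75 in naive libraries, with only Lck and Cd5 tested. Cd3e, Cd3d, Cd3g, Cd4 and Cd8a did not pass the minimum. Even so, Cd3e, Cd3d and Cd3g were higher in every naive library than in every GC library. Cd3g stood at -0.48 to 0.85 in naive and -4.48 to -3.62 in GC libraries. Cd4 and Cd8a overlapped, and Lat, also under the minimum, was higher in the GC library of each replicate number and time. Dendritic cell markers summed to 4.35 to 5.94 in GC and 5.47 to 6.61 in naive libraries, and stromal markers to 4.87 to 5.56 and 4.62 to 8.01. Of 12 markers of marginal zone and B1 cells, other splenic B cell subsets, 9 were lower and 1 higher in GC cells, with Cd9 at -5.68, Cd1d1 at -4.21 and Cr2 at -1.77. The part of these other cells in the differences below was not tested. In these bulk libraries fewer cells of a type and less RNA per cell cannot be told apart.

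Across all genes, 4890 of 10059 (48.6%) were called, 2334 (23.2%) higher and 2556 (25.4%) lower in GC cells. For 4238 genes (42.1%) the 4 GC libraries did not overlap the 4 naive libraries. Counts for the gene groups below are to be read against these shares, since so many genes of all kinds were called. The median difference over all genes was 0.00, the range was -7.16 to 7.43, and 1630 genes were called higher and 1705 lower with a difference of at least 1 on the log2 scale. When the test itself asked for a difference past 1, 681 genes (6.77%) were called higher and 661 (6.57%) lower. At 2 h alone 3246 genes (32.3%) were called and at 4 h alone 3088 (30.7%), and 4874 of the 4890 called genes differed in the same direction at both times. Centred on housekeeping genes, every difference averaged over both times shifted by 0.147 toward higher levels in GC cells. With it 3479 genes were called, 1787 higher and 1692 lower. The housekeeping medians also differed between replicates, for example 8.604 and 7.753 in naive libraries at 2 h. This centring thus moved replicates against each other too, and counts under it reflect both changes. At 4 h that centring gave 1071 higher and 640 lower, against 1397 and 1691 on the deposited scale. The 2 h and 4 h libraries with the same replicate number of a cell type deviated together from their group means (correlation across genes 0.75 for GC and 0.77 for naive). GC and naive libraries with the same number deviated in opposite directions (-0.77 to -0.67), a dependence that the fit does not model. Opposite deviations widen the spread of a GC minus naive difference, so the p-values can be too small and the calls too many. Treating the 2 h and 4 h libraries as correlated, or averaging them, leaves this dependence in. Whether the values were adjusted within a number before deposit is not given in the sources used here, so the p-values hold only on the deposited scale. When the 2 h and 4 h libraries of a cell type and number were treated as correlated, 3399 genes (33.8%) were called. Of these, 1575 were higher and 1824 lower, and 3383 were among the 4890. Without GC replicate 1 at 4 h, 3626 genes were called.

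**Figure D1:**
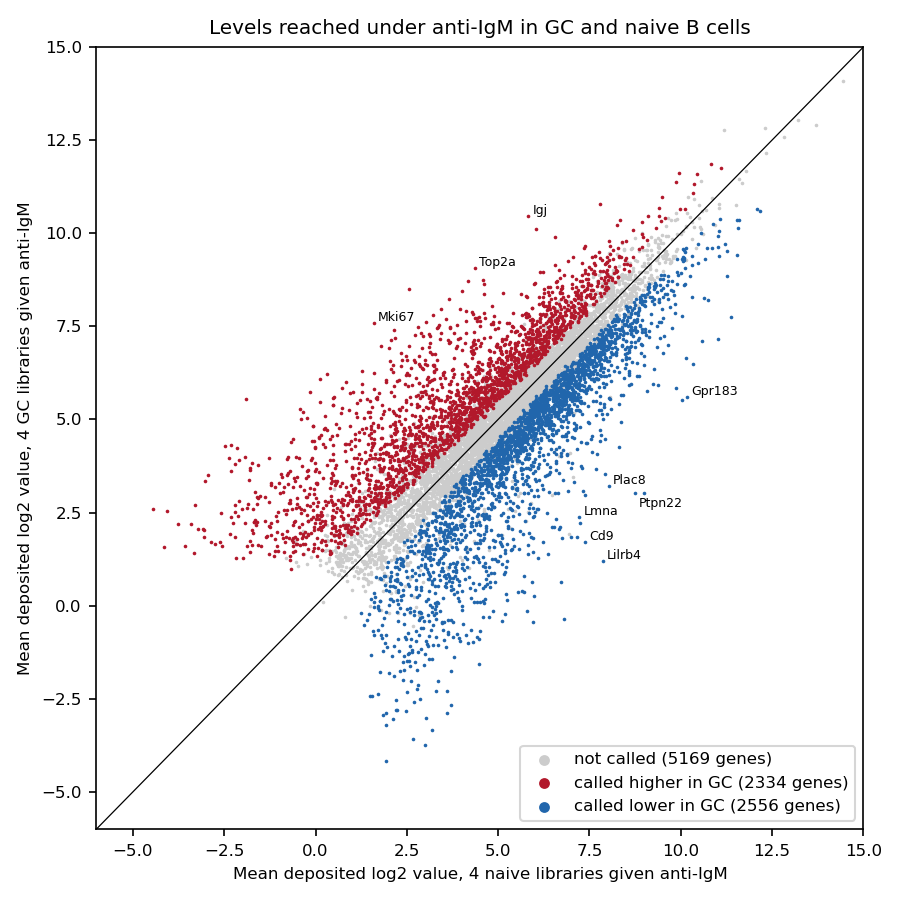
Mean log2 level of each tested gene in the 4 naive libraries (horizontal) and the 4 GC libraries (vertical) under anti-IgM, with genes called higher in GC cells, lower in GC cells and not called in separate colours. The 2334 genes called higher include Top2a, Mki67 and Igj, and the 2556 called lower include Gpr183, Plac8, Ptpn22, Lmna, Cd9 and Lilrb4.

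The promoters of 3 mitotic genes that were higher in GC cells and of 1 ribosome biogenesis gene that was lower are shown here because nearly all members of the 2 groups they belong to were called in 1 direction. Each runs from 250 bases before to 50 bases after the annotated start, 5′ to 3′ on the gene's strand, from RefSeq on GRCm38.p6. Capitals mark the cell cycle homology region core TTTGAA (reverse complement TTCAAA) and the CCAAT box (reverse complement ATTGG) in the mitotic genes, and the E-box CACGTG, to which Myc and Max can bind, in Pes1. Mki67, the proliferation antigen Ki-67, lies on the minus strand with its promoter at chr7:135716330-135716629.
Mki67: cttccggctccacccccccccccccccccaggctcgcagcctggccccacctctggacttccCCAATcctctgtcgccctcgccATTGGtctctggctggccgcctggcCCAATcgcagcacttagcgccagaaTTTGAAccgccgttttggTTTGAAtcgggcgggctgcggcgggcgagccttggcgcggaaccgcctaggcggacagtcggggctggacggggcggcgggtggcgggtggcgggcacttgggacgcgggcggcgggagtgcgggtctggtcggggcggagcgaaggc
Plk1, a mitotic kinase, lies on the plus strand with its promoter at chr7:122159185-122159484.
Plk1: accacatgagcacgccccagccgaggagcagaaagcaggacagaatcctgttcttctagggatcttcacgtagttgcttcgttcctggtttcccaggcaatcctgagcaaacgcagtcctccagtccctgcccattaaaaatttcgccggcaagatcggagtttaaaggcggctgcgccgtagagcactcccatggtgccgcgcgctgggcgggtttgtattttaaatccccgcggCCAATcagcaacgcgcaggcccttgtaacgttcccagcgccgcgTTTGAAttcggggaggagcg
Top2a, the topoisomerase that untangles replicated chromosomes, lies on the minus strand with its promoter at chr11:99024140-99024439.
Top2a: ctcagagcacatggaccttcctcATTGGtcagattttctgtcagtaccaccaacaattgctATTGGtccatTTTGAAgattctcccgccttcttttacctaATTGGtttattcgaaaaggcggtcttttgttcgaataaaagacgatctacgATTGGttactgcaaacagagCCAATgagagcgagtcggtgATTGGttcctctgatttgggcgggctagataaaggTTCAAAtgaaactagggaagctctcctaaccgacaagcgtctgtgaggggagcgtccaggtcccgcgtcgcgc
Pes1, a nucleolar factor needed to process ribosomal RNA, lies on the plus strand with its promoter at chr11:3963725-3964024.
Pes1: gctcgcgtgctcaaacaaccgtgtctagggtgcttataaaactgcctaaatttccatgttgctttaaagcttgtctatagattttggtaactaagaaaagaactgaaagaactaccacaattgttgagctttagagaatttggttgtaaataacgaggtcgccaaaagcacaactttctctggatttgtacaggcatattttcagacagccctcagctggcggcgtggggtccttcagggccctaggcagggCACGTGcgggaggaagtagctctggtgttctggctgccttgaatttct

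Of the 30 genes of the G2/M and spindle list, 25 had a RefSeq promoter in the table. TTTGAA occurred on either strand in 18 of these (72%), against 18.1% of the promoters of all 27025 genes in the table, and CCAAT in 22 (88%) against 37.9%. CCAAT did not follow the direction of the calls across lists. It was in 57.1% of G1/S and replication promoters, but also in 58.8% of immediate early and 50% of aminoacyl-tRNA synthetase promoters, lists with more members lower. In ribosome biogenesis promoters it was in 31.8%. The motif searched as an E2F site, TTTCCCGC on either strand, occurred in 5 of 28 promoters of the G1/S and replication list (17.9%), against 1.11% of all promoters. CACGTG occurred in 5 of 22 ribosome biogenesis promoters (22.7%) and in 4 of 12 promoters of aminoacyl-tRNA synthetase genes (33.3%), against 7.24% of all promoters. It also occurred in 3 of 15 promoters of the GC identity list (20%), whose tested members were called higher. The NF-kB motif searched occurred in 0 of 15 NF-kB target promoters, and the AP-1 motif in 0 of 17 immediate early promoters. In all promoters their shares were 0.144% and 5.17%. The listed motifs do not overlap each other in the 4 promoters printed. These matches describe the sequence only.

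Mitotic and replication genes were higher in GC cells. All 30 genes of G2/M and the mitotic spindle were called higher in GC cells and none overlapped between the cell types, with a median difference of 4.12 and 2 members that passed only through the GC libraries, against 23.2% of all genes called higher. Mki67 stood at 7.52 and 7.0 in the GC libraries at 2 h and 8.01 and 7.78 at 4 h, against 0.88 and 2.91, then -0.03 and 2.60, in naive libraries. Its difference was 5.99 ± 0.64 (adjusted p = 0.000321, limma). Every GC library was far above every naive library, and the naive libraries with replicate number 2 were the higher ones at both times. Top2a stood at 9.20 and 8.66, then 9.01 and 9.39, in GC cells, against 4.30 and 4.94, then 3.92 and 4.28, in naive cells, a difference of 4.70 ± 0.22 (adjusted p = 1.91e-05, limma). Plk1 stood at 5.67 and 6.66, then 6.86 and 7.66, in GC cells, against 3.42 and 1.91, then 3.35 and 2.59, a difference of 3.89 ± 0.42 (adjusted p = 0.000319, limma). Both genes were thus higher in all 4 GC libraries. Cenpf and Cenpe, kinetochore proteins, differed by 5.89 and 5.19, Nek2, a centrosomal kinase, by 5.25, and Bub1b, a checkpoint kinase, by 4.60. The smallest difference in the list was 2.04, for Cenpa, the centromeric histone.

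Of 34 genes of G1/S and DNA replication, 32 were called higher in GC cells and none lower, with a median of 2.30. E2f8, an atypical E2F repressor, differed by 4.91, Mcm10 by 4.67, Cdc6, which loads the replicative helicase, by 3.65, Uhrf1, which maintains DNA methylation, by 3.21 and the helicase subunit Mcm3 by 2.34. Pcna, the polymerase clamp, differed by 1.03. The members not called were Cdt1, the helicase loading factor, at -0.21, and the uracil glycosylase Ung at 0.44. Among 15 tested G1 cyclins and cell cycle inhibitors, 8 were higher and 4 lower, against 23.2% and 25.4% of all genes. Ccnd2, the D-type cyclin induced by receptor signalling in naive B cells, lies at chr6:127125162-127152193 (mm10, GENCODE). It stood at 4.42 and 3.45, then 3.52 and 2.72, in GC cells against 8.19 and 8.29, then 7.51 and 7.67, in naive cells, and its difference was -4.39 ± 0.27 (adjusted p = 3.53e-05, limma). All naive libraries were above all GC libraries. Ccnd3, the D-type cyclin on which GC B cells depend, went the other way, at 7.18 and 7.81, then 6.69 and 7.45, in GC cells against 6.32 and 5.59, then 6.17 and 5.76, in naive cells (1.32, adjusted p = 0.00594, limma). The pocket protein Rbl1 and the inhibitor Cdkn2c were higher by 3.21 and 4.01, and the inhibitor Cdkn1a and the kinase Cdk6 were lower by -1.62 and -1.31.

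Genes that define the 2 cell types were clearly separated under crosslinking. All 18 tested GC identity genes were called higher in GC cells, with a median difference of 4.35, and 4 of them passed the minimum only through the GC libraries. S1pr2, the sphingosine-1-phosphate receptor that confines B cells to the GC, lies at chr9:20962361-20976781. It stood at 8.91 and 9.06, then 8.39 and 8.51, in GC cells, against 4.89 and 4.68, then 3.82 and 3.32, in naive cells, with a difference of 4.54 ± 0.17 (adjusted p = 1.14e-05, limma). Bcl6, the repressor required for the GC fate, stood at 7.92 and 7.44, then 7.80 and 7.76, in GC cells against 3.77 and 4.78, then 4.25 and 4.67 (3.36 ± 0.26, adjusted p = 7.18e-05, limma). Mybl1 differed by 7.43, Gcsam by 5.02, Mef2b, an activator of Bcl6, by 4.57 and Rgs13, a regulator of chemokine receptor signalling, by 4.09. Fas, the death receptor, and Gna13, the G protein that couples to S1pr2, differed least, by 1.76 and 1.38.

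Of 19 naive identity genes, 15 were called lower in GC cells and 2 higher, with a median of -2.92, against 25.4% of all genes called lower. Gpr183, the oxysterol receptor that draws activated B cells to the follicle edge, stood at 5.59 and 5.73, then 5.62 and 5.43, in GC cells against 10.87 and 10.77, then 9.53 and 9.50 in naive cells (-4.57 ± 0.14, adjusted p = 1.14e-05, limma). Ccr7, the receptor for T zone chemokines, stood at 6.66 and 7.05, then 7.49 and 7.44, in GC cells against 10.72 and 10.77, then 11.28 and 11.25 (-3.85 ± 0.16, adjusted p = 1.14e-05, limma). Neither receptor overlapped between the cell types. S1pr1, the egress receptor, was closer, at 7.13 and 6.73, then 6.32 and 6.65, in GC cells against 7.62 and 8.12, then 7.56 and 7.84 (-1.08 ± 0.19, adjusted p = 0.00303, limma), and this call was lost with housekeeping centring. In unstimulated libraries S1pr1 averaged 6.41 in GC and 10.17 in naive cells. Ly6d, Cd38, Klf3 and Klf2 differed by -4.98, -4.14, -4.93 and -2.69. The members called higher in GC cells were Cnp at 2.08 and Fcer2a, the IgE receptor CD23, at 0.52 (adjusted p = 0.0201, and 0.115 with sources correlated). Btla at 0.21 and Il4ra at -0.18 were not called.

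The wider set of positioning receptors followed the same direction. Of 16 tested, 10 were lower in GC cells and 2 higher, with a median of -1.69. Ccr6, a follicular chemokine receptor, differed by -2.92, Gpr174, a lysophosphatidylserine receptor, by -3.45, and S1pr3 by -2.30. Cxcr5, which guides B cells into follicles, differed by -0.76 (adjusted p = 0.0189, and 0.059 with sources correlated). S1pr2 and the cannabinoid receptor Cnr2, at 0.94, were the higher ones. Genes of hypermutation and mismatch or base excision repair were called higher in 13 of 20 cases and lower in 2, with a median of 1.07. The glycosylase Mbd4 differed by 4.66, Apobec1, a cytidine deaminase, by 3.60, the exonuclease Exo1 by 2.91, the translesion polymerase Polh by 2.85 and the mismatch sensor Msh6 by 2.02. The abasic endonuclease Apex1 was lower at -1.05, and so was the glycosylase Smug1 at -0.93 (adjusted p = 0.0766 with sources correlated).

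**Figure D2:**
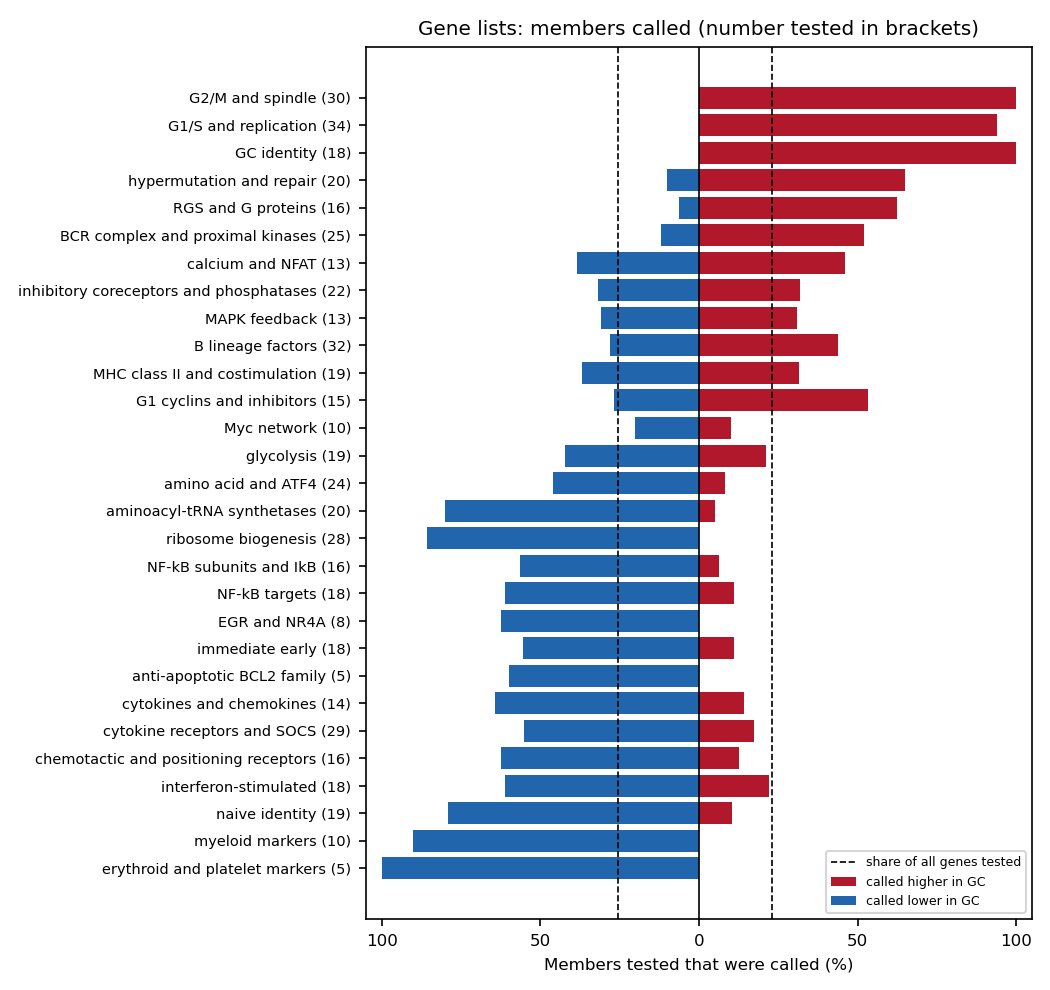
Share of the tested members of each gene list called higher (bars to the right) and lower (bars to the left) in GC than in naive libraries under anti-IgM, in percent, with dashed lines at the share of all 10059 tested genes (23.2% higher, 25.4% lower). GC identity and G2/M members were all called higher, and 24 of 28 ribosome biogenesis members were called lower.

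Many, but not all, of the transcripts that receptor signalling induces first were lower in GC cells. Of 8 tested EGR and NR4A genes with their NAB corepressors, 5 were called lower and none higher, with a median of -0.89, and 3 were called lower with sources correlated. The median difference of these genes in the unstimulated libraries was -1.56. Nr4a1, the orphan nuclear receptor Nur77 that reports antigen receptor signal strength, lies at chr15:101254269-101274795. It stood at 8.34 and 8.69, then 8.09 and 7.68, in GC cells, against 10.60 and 12.14, then 9.81 and 10.46, in naive cells. The lowest naive library was above the highest GC library, and the difference was -2.56 ± 0.35 (adjusted p = 0.000995, limma). Unstimulated libraries averaged 6.89 in GC and 8.96 in naive cells, so the GC level under anti-IgM was near that of naive cells given nothing. Nr4a2, its relative, stood at 4.24 and 4.32, then 4.01 and 3.75, in GC cells, against 8.54 and 8.90, then 6.44 and 6.99, in naive cells (-3.64 ± 0.19, adjusted p = 2.17e-05, limma). Egr2, a zinc finger factor induced through MAPK and calcium, stood at 7.33 and 7.78, then 7.35 and 8.01, in GC cells, against 9.53 and 10.09, then 8.92 and 9.27 (-1.83 ± 0.23, adjusted p = 0.000679, limma). The naive libraries at 2 h were the highest for both genes, and the cell types did not overlap.

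Egr1 and Nab2 were close to the threshold. Egr1, the prototype of the EGR factors, stood at 7.30 and 7.41, then 7.10 and 7.77, in GC cells, against 8.46 and 8.89, then 7.22 and 7.76, in naive cells. At 2 h the cell types were apart and at 4 h they overlapped. The averaged difference was -0.69 ± 0.22 (adjusted p = 0.0352, limma), with an adjusted p of 0.105 with sources correlated. Nab2, a corepressor of EGR factors, differed by -0.66 (adjusted p = 0.0073, and 0.0518 with sources correlated), and Nab1 by -0.06, which was not called. Egr3 and Nr4a3 were not called, and their libraries went in opposite directions by replicate number. Egr3 stood at 5.76 and 3.61, then 5.46 and 3.19, in GC cells, against 2.97 and 5.99, then 2.43 and 4.69, in naive cells. The difference was 2.91 between the libraries with replicate number 1 and -1.94 between those with number 2. For Nr4a3 the same differences were 1.09 and -3.28.

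Among 18 immediate early genes of the AP-1 and related families, 10 were called lower in GC cells and 2 higher, with a median of -0.88. In the unstimulated libraries their median difference was -1.18. With housekeeping centring 6 were lower and none higher, and with the replicate block 9 were lower and none higher. Fosl1, an AP-1 subunit, stood at 1.22 and 1.12, then 0.04 and 0.78, in GC cells against 6.30 and 6.66, then 4.66 and 5.17, in naive cells (-4.91 ± 0.25, adjusted p = 2.07e-05, limma). Unstimulated libraries averaged -1.81 in GC and 1.34 in naive cells. Jun stood at 2.67 and 2.78, then 2.17 and 2.78, in GC cells against 5.95 and 5.68, then 4.84 and 4.97 (-2.76 ± 0.21, adjusted p = 6.54e-05, limma). Neither gene overlapped between cell types, and the Jun levels under anti-IgM lay below the unstimulated means of the same cell type, which were 2.91 in GC and 6.07 in naive cells. Atf3, a stress-induced AP-1 partner, differed by -3.91, the antiproliferative Btg1 by -1.68, Ier2 by -1.58 and Junb by -1.20. Fos differed by -0.87 (adjusted p = 0.0107, and 0.0807 with sources correlated). The higher members were Srf, the serum response factor, at 1.07 and Btg2 at 0.48 (adjusted p = 0.169 with sources correlated). Fosb differed by 2.47 between number 1 libraries and by -2.69 between number 2 libraries, and Fosl2 by 0.79 and -2.68. Genes raised by handling and heat were lower in GC cells in 6 of 9 tested cases, with a summed level of 9.98 to 10.34 in GC and 10.49 to 11.26 in naive libraries. The members called were Jun, Atf3, Ier2, Junb, Fos and Egr1. The heat shock genes Hsph1, Hsp90aa1 and Dnajb1 lay at 0.36, -0.21 and -0.11 and were not called. The heat shock genes Hspa1a, Hspa1b and Hspb1 did not pass the minimum, but each was higher in every naive library than in every GC library. Hspa1a stood at -1.17 to -0.18 in GC and 0.76 to 1.38 in naive libraries. The part of handling and heat in the result was not tested.

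**Figure D3:**
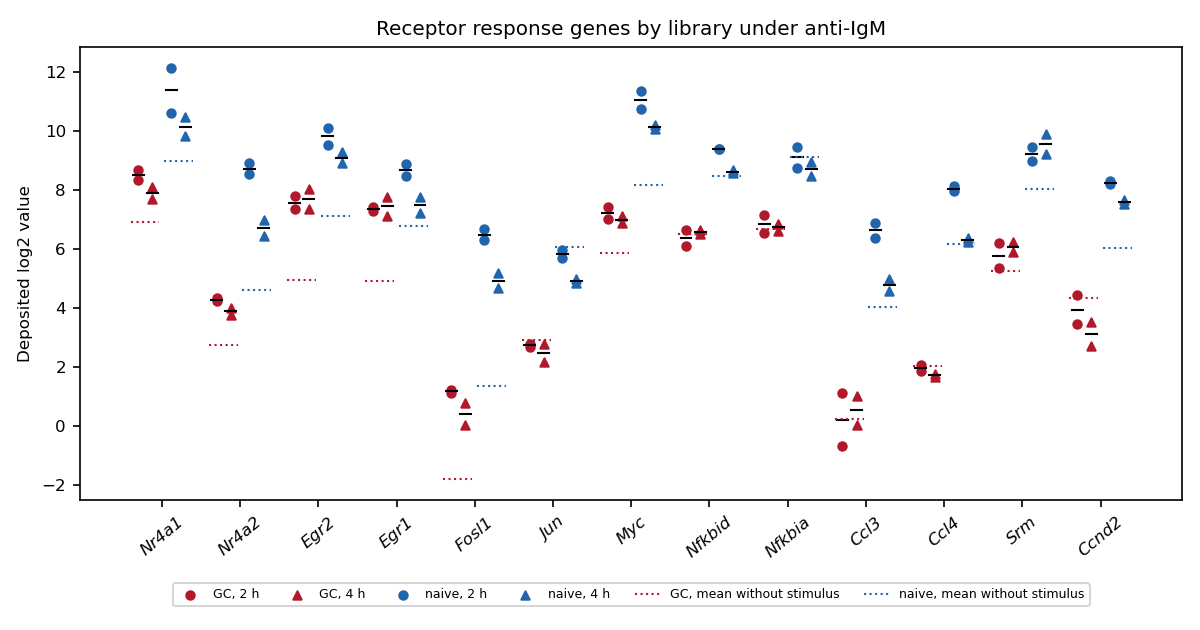
Log2 level of response genes in each library under anti-IgM (circles 2 h, triangles 4 h, red GC, blue naive), with black bars at the group means and dotted lines at the unstimulated means. For Nr4a1, Nr4a2, Egr2, Fosl1, Jun, Myc, Nfkbid, Nfkbia, Ccl3, Ccl4, Srm and Ccnd2 all naive libraries lie above all GC libraries, while Egr1 overlaps at 4 h.

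MAPK feedback genes had 4 of 13 higher and 4 lower in GC cells, against 23.2% and 25.4% of all genes. Their median was 0.11, against -0.35 in the unstimulated libraries. Spry1, an inhibitor of Ras signalling, stood at -0.83 and -0.53, then -1.12 and -1.47, in GC cells against 4.01 and 4.92, then 3.85 and 4.41, in naive cells. The GC values lie below the minimum used for testing, and the gene passed through the naive libraries alone, so no difference is given. The MAP kinase phosphatases Dusp7, Dusp5 and Dusp1 differed by -2.62, -1.38 and -1.30. Dusp10, which acts on JNK and p38, was higher by 2.33 and Spred2, another Ras inhibitor, by 2.57.

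Most genes of the signalling machinery were not called lower in GC cells. Of 25 tested genes of the receptor complex and its proximal kinases and adaptors, 13 were called higher, 3 lower and 9 not, with a median of 0.71. Without stimulus the median difference of these genes was -0.13, so the higher median was seen under anti-IgM only. With sources correlated 9 were higher and 3 lower, and with housekeeping centring 10 and 2. Syk, the kinase recruited to the phosphorylated receptor, lies at chr13:52583173-52648792. It stood at 8.79 and 8.28, then 8.51 and 8.42, in GC cells, against 6.80 and 7.30, then 6.02 and 6.71, in naive cells (1.79 ± 0.22, adjusted p = 0.000606, limma). Unstimulated libraries averaged 10.48 in GC and 9.24 in naive cells, above every stimulated library of the same cell type. Cd79b, a signalling chain of the receptor, stood at 10.17 and 10.73, then 10.32 and 10.68, in GC cells, against 9.10 and 8.67, then 9.48 and 9.21, in naive cells (1.36 ± 0.21, adjusted p = 0.0017, limma). Its unstimulated means were 11.38 in GC and 11.69 in naive cells. Cd79a, the other chain, stood at 10.65 and 11.07, then 10.07 and 10.58, in GC cells, against 11.71 and 10.85, then 10.20 and 9.61, in naive cells. These libraries overlapped, and the difference was -0.00 with an adjusted p of 0.999 (limma).

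Downstream of Syk, Plcg2, the phospholipase that starts the calcium signal, stood at 8.57 and 8.92, then 9.0 and 9.40, in GC cells against 7.24 and 7.78, then 7.65 and 7.88, in naive cells (1.34 ± 0.20, adjusted p = 0.00128, limma). Btk, the kinase that activates it, stood at 7.38 and 7.69, then 8.08 and 8.41, in GC cells against 6.64 and 6.80, then 6.74 and 7.14 (1.06 ± 0.17, adjusted p = 0.00205, limma). In both genes the lowest GC library was above the highest naive library. The PI3-kinase subunits Pik3r1 and Pik3cd differed by 1.65 and 1.36, and Rasgrp3, an activator of Ras, by 1.02. Lyn, the Src kinase with activating and inhibitory roles, stood at 9.07 and 9.16, then 8.75 and 8.90, in GC cells against 8.98 and 8.85, then 7.64 and 7.59 (0.71 ± 0.14, adjusted p = 0.00522, limma). The cell types nearly met at 2 h and were apart at 4 h. The adaptor Blnk differed by 0.77 (adjusted p = 0.018, and 0.0522 with sources correlated). The Src kinase Blk at -0.37 was not called.

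The 3 lower members were Orai1, Fyn and Malt1. Orai1, the pore of the store-operated calcium channel, lies at chr5:123015074-123030456. It stood at 4.98 and 5.78, then 5.22 and 5.33, in GC cells, against 8.38 and 7.90, then 7.98 and 7.33, in naive cells, and every naive library was higher (-2.57 ± 0.25, adjusted p = 0.000189, limma). The Src kinase Fyn differed by -1.40 (adjusted p = 0.00329, limma) and the paracaspase Malt1, which acts in NF-kB activation, by -1.49 (adjusted p = 0.0149, limma). Stim1, the calcium sensor that opens Orai1, was higher by 1.13 (adjusted p = 0.0183, and 0.0625 with sources correlated). Of 13 calcium and NFAT genes, 6 were higher and 5 lower in GC cells, against 23.2% and 25.4% of all genes. With sources correlated these counts were 4 and 2. Rcan1, a calcineurin inhibitor that NFAT induces, was lower by -2.34, and Nfatc2 was higher by 1.75. Nfatc1, the NFAT gene with an inducible promoter, differed by -0.75 (adjusted p = 0.0218, and 0.0673 with sources correlated).

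**Figure D4:**
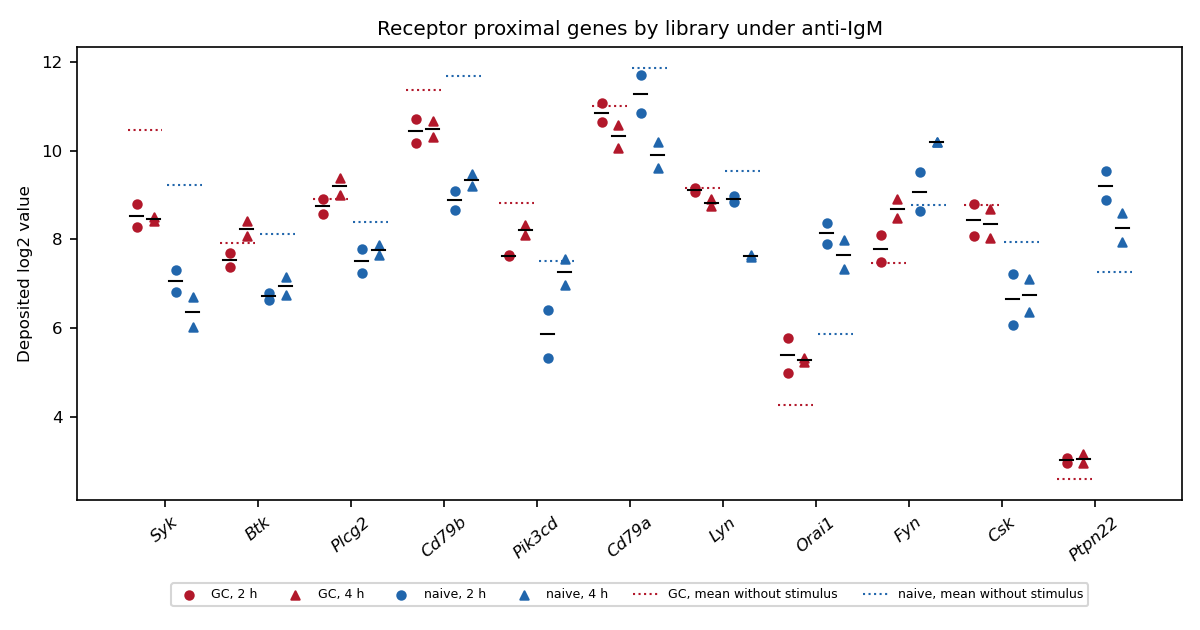
Log2 level of receptor-proximal and inhibitory genes in each library under anti-IgM (circles 2 h, triangles 4 h, red GC, blue naive), with black bars at the group means and dotted lines at the unstimulated means. GC libraries lie above naive libraries for Syk, Btk, Plcg2, Cd79b, Pik3cd and Csk, below them for Orai1 and Ptpn22, and overlap them for Cd79a, Lyn and Fyn.

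Inhibitory receptors and phosphatases had 7 of 22 tested genes higher and 7 lower in GC cells, against 23.2% and 25.4% of all genes. Their median was 0.56, against -0.425 in the unstimulated libraries, and 5 were higher and 7 lower with sources correlated. Ptpn22, a phosphatase that dephosphorylates Src and Syk family kinases in lymphocytes, lies at chr3:103859795-103912247 and had the third largest negative difference among the genes chosen by the naming rule. It stood at 3.06 and 2.96, then 3.15 and 2.96, in GC cells, against 8.89 and 9.54, then 7.93 and 8.60, in naive cells (-5.71 ± 0.22, adjusted p = 1.14e-05, limma). The GC libraries were nearly identical and lay far under the naive ones, and the unstimulated means were 2.58 and 7.27. Cd72, an inhibitory coreceptor of B cells, stood at 7.39 and 7.91, then 7.85 and 8.24, in GC cells against 9.75 and 9.71, then 10.08 and 9.88 (-2.01 ± 0.19, adjusted p = 0.000157, limma). Cd5, an inhibitory coreceptor of T and B1 cells, differed by -2.27 and the phosphatase Ubash3b by -2.52.

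Other inhibitors were higher in GC cells. Cd22, an inhibitory lectin of B cells, stood at 8.38 and 8.57, then 8.28 and 8.72, in GC cells, against 7.77 and 8.33, then 6.23 and 6.40, in naive cells (1.30 ± 0.19, adjusted p = 0.00126, limma). Cd22 differed mostly at 4 h, when the naive libraries were low. Csk, which phosphorylates the inhibitory tyrosine of Src kinases, differed by 1.71 and the ubiquitin ligase Cblb by 1.42. Fcgr2b, the inhibitory Fc receptor, differed by 0.52 (adjusted p = 0.045, and 0.166 with sources correlated). Ptpn6, the phosphatase SHP-1, stood at 8.98 and 9.94, then 9.14 and 10.16, in GC cells against 9.13 and 8.97, then 8.86 and 8.88, in naive cells, a difference of 0.60 that was not called (adjusted p = 0.13, limma).

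Of 16 NF-kB subunits and regulators 9 were lower in GC cells, 1 higher and 6 not called, with a median of -0.84, and with housekeeping centring 6 were lower and 2 higher. Their median difference in the unstimulated libraries was -1.13. Nfkbid, a nuclear IkB protein, stood at 6.10 and 6.64, then 6.65 and 6.51, in GC cells, against 9.39 and 9.37, then 8.56 and 8.67, in naive cells (-2.52 ± 0.17, adjusted p = 4.36e-05, limma). Nfkbia, the IkB-alpha inhibitor, stood at 6.53 and 7.14, then 6.61 and 6.86, in GC cells, against 9.46 and 8.75, then 8.95 and 8.46, in naive cells (-2.12 ± 0.24, adjusted p = 0.000375, limma). Neither overlapped, and the Nfkbia means were close to the unstimulated ones, 6.69 in GC and 9.12 in naive cells. Nfkbie differed by -1.34, the subunits Rela and Relb by -1.03 and -0.64 (for Relb adjusted p = 0.090 with sources correlated), and Tnfaip3, the deubiquitinase A20, by -1.13 (adjusted p = 0.0196, limma). Cyld, a deubiquitinase that restrains NF-kB, was the higher member, at 8.03 and 7.59, then 7.73 and 7.57, in GC cells against 6.33 and 6.18, then 5.88 and 6.20 (1.59 ± 0.17, adjusted p = 0.000295, limma). Rel was not called, with 0.46 between number 1 libraries and -1.55 between number 2 libraries. Of 18 tested NF-kB targets 11 were lower and 2 higher, with Map3k8 at -2.09, Slfn2 at -1.88, Traf1 at -0.96 and Tnfaip8 higher at 1.58. With housekeeping centring 6 targets were lower and 1 higher. Cd83, an activation marker, stood at 10.44 and 11.33, then 10.10 and 10.69, in GC cells, against 12.34 and 12.07, then 12.002 and 11.90, in naive cells (-1.44 ± 0.26, adjusted p = 0.00325, limma).

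Myc itself and most ribosome biogenesis and aminoacyl-tRNA synthetase genes were called lower in GC cells. Glycolysis was mixed, and the Myc network and oxidative phosphorylation had few members called. Myc, the growth regulator, lies at chr15:61985391-61990374. It stood at 7.02 and 7.42, then 7.11 and 6.87, in GC cells, against 10.74 and 11.36, then 10.06 and 10.20, in naive cells. Every naive library was higher, the difference was -3.49 ± 0.20 (adjusted p = 2.66e-05, limma), and unstimulated libraries averaged 5.86 in GC and 8.15 in naive cells. The GC level under anti-IgM was thus under the mean of unstimulated naive cells. The Myc network list, which includes Myc itself, had 2 of 10 tested members lower and 1 higher, against 25.4% and 23.2% of all genes. Its median was 0.10. The lower members were Myc and Mxd1. The repressor Mxd1 differed by -1.35 and Mxd4 by 0.76 (for Mxd4 adjusted p = 0.114 with sources correlated).

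Of 28 ribosome biogenesis genes 24 were called lower in GC cells and none higher, against 25.4% of all genes called lower, with a median of -1.36. With sources correlated 22 were lower and with housekeeping centring 17. The unstimulated libraries had a median difference of -0.99 for these genes. Srm, spermidine synthase, a Myc target, lies at chr4:148591503-148594993. It stood at 5.34 and 6.19, then 5.90 and 6.22, in GC cells, against 9.46 and 8.97, then 9.90 and 9.22, in naive cells (-3.48 ± 0.26, adjusted p = 6.54e-05, limma). Nop56, a snoRNP core protein, stood at 6.71 and 7.43, then 7.14 and 7.49, in GC cells, against 9.56 and 9.43, then 9.49 and 9.29 (-2.25 ± 0.20, adjusted p = 0.000141, limma). Neither gene overlapped, and in both the naive libraries were even across the times. Pes1, whose promoter is printed above, stood at 7.92 and 8.33, then 8.60 and 8.31, in GC cells against 9.13 and 9.39, then 9.21 and 9.17 (-0.93 ± 0.17, adjusted p = 0.00361, limma). Polr1b, a subunit of RNA polymerase I, differed by -2.50, the U3 factor Rrp9 by -2.47 and the nucleolar GTPase Gnl3 by -1.92. The abundant nucleolar proteins Ncl at -0.72 and Npm1 at -0.46 were not called, and neither were Ddx21 at -0.51 and Utp20 at -0.15. None of 32 cytosolic ribosomal protein genes was called by limma with all 8 libraries, but 9 were called higher without GC replicate 2 at 4 h and 1 lower without naive replicate 2 at 2 h, and their median was 1.58 between number 1 libraries and -0.23 between number 2 libraries.

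Aminoacyl-tRNA synthetases were lower in GC cells in 16 of 20 cases and higher in 1, with a median of -0.80, and 11 were lower with sources correlated and 7 with housekeeping centring. Tars and Wars, which charge threonine and tryptophan tRNA, differed by -1.38 and -1.32, and Qars, which charges glutamine tRNA, was higher by 1.34. Among 24 amino acid transporters, biosynthetic enzymes and ATF4 targets, 11 were lower and 2 higher. Slc7a5, the light chain of the large neutral amino acid transporter, stood at 7.57 and 7.78, then 7.98 and 7.76, in GC cells, against 9.10 and 9.82, then 10.76 and 10.43, in naive cells (-2.26 ± 0.21, adjusted p = 0.000153, limma). The naive libraries were higher at 4 h than at 2 h and never overlapped the GC libraries. Its heavy chain Slc3a2 differed by -1.85, and the stress genes Sesn2 and Trib3 by -2.14 and -2.12. Glycolysis had 8 of 19 genes lower and 4 higher, against 25.4% and 23.2% of all genes. With sources correlated 7 were lower and 1 higher. The lactate transporter Slc16a1 and lactate dehydrogenase Ldha differed by -1.76 and -1.56, hexokinase Hk2 by -1.63 and the glucose transporter Slc2a1 by -1.02, whereas Gpi1 and Gapdh were higher by 0.89 and 0.68 (for Gapdh adjusted p = 0.0609 with sources correlated). Oxidative phosphorylation had 2 of 28 genes higher and 2 lower. Chaperones had 11 of 20 lower and none higher, with a median of -0.67, and 4 of 20 were lower with housekeeping centring.

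Only 14 of 24 cytokine and chemokine genes passed the minimum, 2 of them only through the naive libraries, and 9 of the 14 were lower in GC cells and 2 higher. Ccl4, a chemokine made by activated B cells and macrophages, lies at chr11:83662584-83664683. It stood at 2.06 and 1.86, then 1.67 and 1.76, in GC cells, against 8.13 and 7.95, then 6.37 and 6.24, in naive cells (-5.34 ± 0.17, adjusted p = 1.14e-05, limma). Ccl3, its neighbour and relative, stood at 1.10 and -0.68, then 1.02 and 0.03, in GC cells, against 6.37 and 6.88, then 4.58 and 4.97, in naive cells (-5.33 ± 0.43, adjusted p = 8.8e-05, limma). Both were higher in naive libraries at 2 h than at 4 h and stayed low in all GC libraries, and the unstimulated naive means were already 6.15 for Ccl4 and 4.02 for Ccl3, against 2.03 and 0.21 in GC cells. Their receptor Ccr1 differed by -5.30 and Vegfa by -3.80, while the cytokines Il16 and Ltb were higher by 1.92 and 1.18. Tnf at -0.07 and Lta at -0.14 were not called. Myeloid cells also make Ccl3, Ccl4 and Ccr1, and 9 of 10 tested myeloid markers were lower in GC cells as given above, with Cd14 at -4.91 and Csf1r at -3.78. Their part in the result was not tested.

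Of 29 cytokine receptor, JAK, STAT, SOCS and PIM genes 16 were lower and 5 higher in GC cells, with a median of -0.74. Of the 29, 2 passed the minimum only through the naive libraries. With sources correlated 12 were lower and 2 higher, and with housekeeping centring 10 and 2. Il2ra, the inducible IL-2 receptor chain, stood at 1.32 and 0.50, then 2.40 and 1.72, in GC cells, against 4.08 and 4.99, then 5.58 and 6.10, in naive cells (-3.70 ± 0.33, adjusted p = 0.000125, limma). Every naive library was higher. The common gamma chain Il2rg differed by -2.38, Il7r by -4.35, the interferon receptor chain Ifnar2 by -2.86 and the kinase Pim3 by -3.07. Jak2 and Stat5b were higher by 1.55 and 1.31, and Il21r, the receptor for the follicular helper cytokine IL-21, by 0.52 (adjusted p = 0.0471, and 0.143 with sources correlated). Of 11 tested TNF family members 7 were lower and 3 higher in GC cells. Of the 11, 3 passed the minimum only through the naive libraries and 1, Tnfsf9, only through the GC libraries, so these had to differ. Tnfrsf1b differed by -2.67, Tnfsf9 by 3.47 and Cd40 by -0.71 (adjusted p = 0.0326, limma, and 0.111 with sources correlated).

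Survival genes differed by member. Bcl2, the survival factor that GC B cells are known to lack, stood at 1.30 and 0.38, then 1.52 and 2.07, in GC cells, against 5.26 and 5.24, then 3.83 and 3.99, in naive cells (-3.26 ± 0.27, adjusted p = 9.97e-05, limma). All naive libraries were higher, more so at 2 h. Bcl2a1b and Bcl2a1d, NF-kB targets, differed by -1.65 and -1.54, but these copies are nearly identical and reads may have been split between them. Mcl1, on which GC B cells depend, was not called, at 9.44 and 9.37, then 9.16 and 9.45, in GC cells against 9.54 and 9.76, then 9.04 and 9.16 (-0.02 ± 0.16, adjusted p = 0.92, limma), and neither was Bcl2l1 at -0.26. Of 10 tested BH3-only and effector genes 4 were higher and 1 lower. Bmf, a BH3-only protein, stood at 6.88 and 5.25, then 7.14 and 5.76, in GC cells, against 1.08 and 3.44, then 1.88 and 3.58, in naive cells (3.76 ± 0.68, adjusted p = 0.00349, limma). The cell types did not overlap, but number 1 libraries were further apart than number 2 libraries. Bak1 differed by 4.05, with 6.65 between number 1 and 1.45 between number 2 libraries, and Bad by 1.99. Bbc3, the p53 target PUMA, was lower by -0.98, and Bcl2l11, the protein BIM, was not called at 0.25.

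Among the 12 genes with the largest positive and the 12 with the largest negative differences that met the naming rule, all 24 were also called with sources correlated and with the times averaged. Genes on the higher side included Rassf6 at 5.06, Igj, the joining chain of polymeric antibody, at 4.63, and Eaf2, an elongation factor partner, at 4.59. Igj stood at 10.44 and 10.92, then 9.95 and 10.53, in GC cells against 6.97 and 5.80, then 5.88 and 4.66, in naive cells, and it is one of the plasma cell markers given above, whose part in the result was not tested. On the lower side Lilrb4, an inhibitory immunoglobulin-like receptor, stood at 0.42 and 1.30, then 1.65 and 1.45, in GC cells against 7.33 and 7.95, then 7.94 and 8.23, in naive cells (-6.66 ± 0.26, adjusted p = 1.14e-05, limma). Plau, urokinase, stood at 3.23 and 3.12, then 2.94 and 2.80, in GC cells against 8.58 and 10.02, then 8.05 and 9.28 (-5.96 ± 0.38). The tetraspanin Cd9 stood at 0.93 and 1.17, then 2.40 and 2.33, in GC cells against 7.29 and 7.46, then 7.50 and 7.29 (-5.68 ± 0.17). The naming rule required that the cell types not overlap, so the lack of overlap in these genes is not a result. Amz1, Lmna, the nuclear lamin A, Plac8 and Epcam, an adhesion molecule, differed by -5.02, -4.85, -4.83 and -4.57.

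Whether a difference depended on time was tested as the 4 h difference minus the 2 h difference. No gene was called by limma with libraries treated as independent, although 641 (6.37%) had an unadjusted p below 0.05, and 627 (6.23%) were called with sources correlated, 369 with a positive and 258 with a negative change. Genes named here come from the correlated fit. For all but 7 of the 258 genes with a negative change the naive mean was higher at 4 h than at 2 h, and for 234 the step in naive cells was larger than that in GC cells. Stat5a, a transducer of cytokine signals, stood at 6.16 and 6.24, then 6.13 and 5.70, in GC cells, against 4.71 and 5.71, then 7.15 and 7.33, in naive cells (-2.32, adjusted p = 0.00629). Naive cells were below GC cells at 2 h and above them at 4 h. Psat1, an enzyme of serine synthesis, stood at 7.77 and 7.61, then 8.19 and 7.68, in GC cells, against 6.57 and 6.74, then 8.68 and 8.60, in naive cells (-1.74, adjusted p = 0.00546). Shmt2, a mitochondrial one-carbon enzyme, stood at 7.23 and 7.51, then 8.09 and 8.15, in GC cells, against 7.22 and 7.50, then 9.93 and 9.75, in naive cells (-1.73, adjusted p = 0.00546). At 2 h these Shmt2 levels could not be told apart. Slc1a4, a neutral amino acid transporter, changed by -2.92, the alanyl synthetase Aars by -1.60, Asns, which makes asparagine, by -1.38, and Bcat1, a branched-chain aminotransferase, by -1.22. Tspan5, the sterol enzyme Lss, the peptidase Thop1, Cad, which starts pyrimidine synthesis, and Gm129 had changes of -2.29, -1.86, -1.78, -1.78 and -1.76.

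For 362 of the 369 genes with a positive change the naive mean was lower at 4 h than at 2 h, and for 329 the naive step was the larger one. Phf19, a Polycomb cofactor, stood at 6.28 and 5.92, then 6.12 and 5.85, in GC cells, against 3.15 and 3.72, then 0.57 and 1.44, in naive cells (2.32, adjusted p = 0.00546). Neil1, a DNA glycosylase, stood at 7.99 and 8.66, then 8.17 and 8.63, in GC cells, against 5.95 and 5.34, then 3.73 and 3.38, in naive cells (2.17, adjusted p = 0.00437). GC cells were higher at both times for these genes, and the gap was wider at 4 h. Opn3, Clec12a, a C-type lectin, Rsu1 and Cybasc3 had changes of 2.10, 2.08, 2.07 and 2.01. Genes with a lower GC level whose gap narrowed were Ccl3 by 2.17, Bcl2 by 2.29, Nr4a2 by 1.61, Ccl4 by 1.49, Egr1 by 1.27 and Gpr183 by 1.16. For Cd22 and Lyn, which were higher in GC cells, the gap widened by 1.75 and 1.01.

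**Figure D5:**
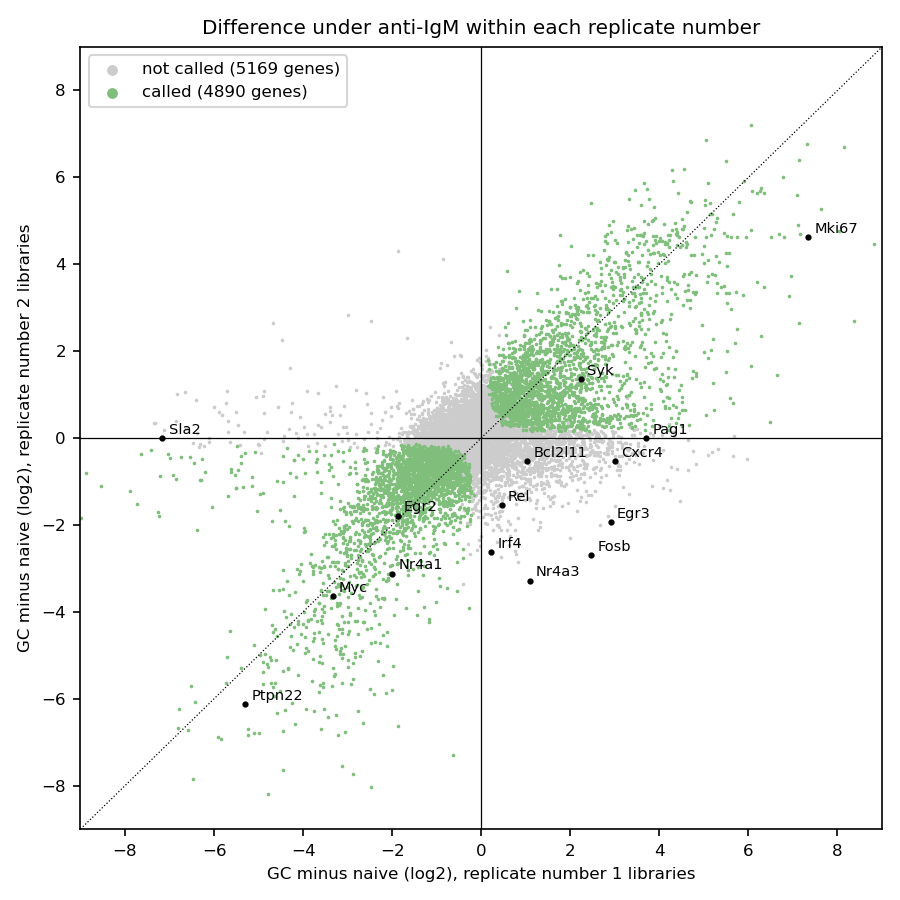
GC minus naive difference on the log2 scale among libraries with replicate number 1 (horizontal) and number 2 (vertical), each the mean of 2 h and 4 h, for all tested genes with selected genes labelled. Of all tested genes 70.5% had the same sign in both numbers. All 4890 called genes did, but the calls came from these same libraries and opposite signs work against a call. That agreement is therefore not separate evidence. Egr3, Nr4a3 and Fosb lie in the quadrant with a positive number 1 and a negative number 2 difference.

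The replicate numbers set a limit on single genes. The spread of the differences was larger between number 1 libraries (SD over genes 1.78) than between number 2 libraries (1.45). In the fit of all 8, 29 of 58 tested key genes were called lower and 16 higher, against 25.4% and 23.2% of all genes. Cxcr4, the chemokine receptor of dark zone cells, stood at 9.22 and 7.47, then 9.0 and 7.05, in GC cells, against 6.34 and 8.10, then 5.87 and 7.46, in naive cells. Number 1 libraries differed by 3.0 and number 2 libraries by -0.52, and the gene was not called (1.24, adjusted p = 0.159, limma). Irf4, a factor induced in proportion to receptor signal, stood at 9.30 and 7.96, then 8.39 and 7.08, in GC cells, against 8.83 and 10.34, then 8.43 and 9.94, in naive cells (-1.20, adjusted p = 0.104, limma). Its difference was 0.22 between number 1 and -2.62 between number 2 libraries. For the most abundant transcripts the deposited values repeat: H2-Ab1, Cd74 and H2-Aa each had the same level at 2 h and 4 h within a replicate number of a cell type, for example 12.47 and 13.31 for H2-Ab1 in GC cells at both times.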

How the data were processed

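RNA was isolated with the RNeasy Plus Mini kit and libraries were made with the SMART-Seq v4 Ultra Low Input kit, per the labels' protocols. STAR 2.6.1a, Subread 2.0.1 with featureCounts, limma, Trim Galore 0.6.5, FastQC 0.11.7 and build mm10 are named in the submitters' processing notes, without their roles. The authors deposited log2 values per gene symbol, and how they were scaled is not given in the sources used here. Of 8428 genes below -3 in all 8 libraries, 7226 had equal values within a replicate number (tolerance 0.0015), so low values carry little information.

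The 8 libraries were fitted with limma 3.58.1 (trend, robust, R 4.3.3, statmod 1.5.0) as 4 groups of cell type and time with 4 residual degrees of freedom, and p-values were adjusted by Benjamini-Hochberg over 10059 genes. In an alternative, the 2 h and 4 h libraries of one cell type and replicate number were given a shared correlation, estimated at 0.73, which is called sources correlated in the text. The genes named by rule were the 12 called in each direction with the largest difference among those with a mean log2 level of at least 4, the same sign at both times and no overlap between cell types. Small RNAs, receptor segments and predicted genes were left out. To these were added 59 key genes, the list members with the smallest adjusted p or the largest difference, and, for time dependence, 6 genes in each direction, taken from the fit with sources correlated because the independent fit called none. Other list members, among them those not called, were named after their values were seen. Members, key genes and the 51 gene lists were chosen with earlier results of these data known. Of the listed genes, 847 were matched in the files and 738 tested, and Ighm, Ighd, Trac and the mitochondrially encoded genes were not analysed here. Coordinates are from GENCODE on mm10. Some genes that the naming rules select are not reported here. The fit was tested on simulated data with independent libraries, so that test could not show false calls caused by dependence between libraries.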

Additional observations from a re-analysis of the deposited data

How the results depend on the processing

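Counts of called genes depended on the setting more than directions did. No called gene of the main fit was called in the opposite direction under any setting run. The settings reuse some or all of the same 8 libraries, so an opposite call was unlikely from the start and this agreement is not separate evidence. The number called over both times was 3201 without a minimum level, 2775 with the times averaged and 1342 when the difference had to exceed 1 (681 higher, 661 lower), and 3626 to 5026 with 1 library left out. At 2 h it was 1210 without a minimum level, 5467 with all 66 libraries and a set term, 1929 with housekeeping centring, 6136 with a crossed replicate block, and 1652 to 3036 with 1 library left out (1652 without GC replicate 1, 2092 without GC replicate 2). At 4 h these counts were 966, 5451, 1711, 6175 and 1534 to 3330 (1534 and 1615 without GC replicates 1 and 2, 1551 without naive replicate 1). Time dependence was called for 0 genes in the independent fit and with any 1 library left out, 139 with 32 libraries, 523 with 66 libraries, 627 with sources correlated and 397 with a crossed replicate block.

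GC and naive libraries with the same replicate number deviated from their group means in opposite directions (correlation across genes -0.77 to -0.67), so they were not independent, but the numbers did not pair them by the rule of a positive correlation. With the replicate block 4270 genes were called. Of the 77 key and largest-difference genes only Fcgr2b lost its call, and among other genes Srf and Btg2 lost theirs and the inhibitory list fell from 7 to 5 higher. Crossing the numbers in the block gave 7256 called genes. The crossed block fits the opposite deviations as a nuisance term and takes them out of the spread. Its larger counts are therefore no check on this dependence.

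Among the 77 key and largest-difference genes, signs turned only for genes that were not called, again in fits that share libraries. Egr3 ranged from -0.27 to 1.24 with 1 library left out, at -0.05, -0.27, -0.08 and -0.08 without the number 1 libraries in turn, and went to -1.94 with number 2 alone. Cd79a went to 0.0185, 0.15 and 0.16 under median, housekeeping and quantile scaling, and ranged from -0.21 to 0.21 with 1 library left out (0.11, 0.21, 0.13 and 0.15 without the number 1 libraries in turn) and went to 0.59 with number 2 alone. Mcl1 went to 0.13 and 0.10 under housekeeping and quantile scaling, and ranged from -0.0925 to 0.05 with 1 library left out and went to 0.007 with number 1 alone. With number 1 alone Nr4a3, Irf4 and Rel went to 1.09, 0.22 and 0.46, and with number 2 alone Id3, Cxcr4, Bcl2l11 and Psat1 went to 0.21, -0.52, -0.53 and -0.023. The cause was not tested. Of the same 77 genes 12 lost their call without a minimum level, 9 with the times averaged, 8 with housekeeping centring and 6 with sources correlated, and the last were Egr1, Fos, Cd86, Blnk, Fcgr2b and Nfatc1. Losses of other genes with sources correlated stand beside their values. The crossed block, the fits by number and the scalings of the time test were chosen after seeing the data. Depth is unknown, so low levels carry no counting interval.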

Other observations

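Interferon-stimulated genes were lower in GC cells in 11 of 18 tested cases and higher in 4, against 8 and 2 with sources correlated. Of the 18, 6 passed the minimum only through the naive libraries. Ifit1, an inhibitor of viral translation, stood between -4.59 and -2.62 in GC libraries and between 2.67 and 3.46 in naive libraries, so that it passed through the naive libraries alone. Irf9 and Isg15 differed by -2.10 and -1.85. Stat2, Parp14 and Ly6e, also interferon-induced, were higher by 1.63, 2.09 and 0.94, the last with an adjusted p of 0.0644 with sources correlated. Among RGS and G protein genes 10 of 16 were higher in GC cells and 1 lower. Gnb4 differed by 3.30, Rgs10 by 2.21, Rgs14 by 1.88, Gnai2 by 1.38 and Rgs1 by 1.28, while Rgs3 was lower by -3.98.

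Of 32 B lineage transcription factors 14 were higher and 9 lower, against 23.2% and 25.4% of all genes. Their median was 0.34, against -0.28 in the unstimulated libraries. Pax5, Ikzf1, Pou2af1, Spib and Ets1, factors of B cell identity, were higher by 2.56, 2.05, 2.02, 1.95 and 1.76, and Tbx21, Ahr, Id2 and Prdm1 were lower by -3.55, -2.61, -2.19 and -1.88. Tbx21 stood at 3.80 and 3.90 at 2 h and 2.19 and 2.18 at 4 h in GC cells, against 7.78 and 8.25, then 5.16 and 5.08, in naive cells (-3.55 ± 0.18, adjusted p = 1.94e-05, limma). In antigen presentation 6 of 19 genes were higher and 7 lower, against 23.2% and 25.4% of all genes. Both with sources correlated and with housekeeping centring, 5 were higher and 3 lower. Among these genes were the ubiquitin ligase March1 at 3.04, Ifi30 at 1.59, the class II transactivator Ciita at 1.52 and the PD-1 ligand Cd274 at -2.95. Sterol synthesis had 6 of 20 genes higher and 1 lower, against 23.2% and 25.4% of all genes, and 2 were higher with sources correlated. Dhcr7 differed by 1.48 and Pmvk by 1.28. Malat1, a nuclear RNA, was lower by -3.63, with -6.31 between number 1 and -0.96 between number 2 libraries.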
